A study of Arabidopsis thaliana with 6 samples.

Results

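ZHOUPI (ZOU) and 6 genes that act with it at the boundary between embryo and endosperm were followed in whole siliques of Arabidopsis. The 7 genes are ZOU (AT1G49770), ICE1 (AT3G26744), ALE1 (AT1G62340), KRS (AT1G50650), TWS1 (AT5G01075), GSO1 (AT4G20140) and GSO2 (AT5G44700), taken by identifier from a table of 31608 genes and loci. The rule that picks them is a list of identifiers with no threshold on values, although they were proposed with results of these data known. Siliques, the fruits that hold the seeds, of the wild-type accession Col-0 and of the mutant mee45-1 were sampled 4 days after pollination, with 3 libraries of polyA RNA for each genotype. No transgene, treatment or second allele is named for either group, and the sources used here do not describe the mee45-1 lesion. The labels give the tissue as silique in one field and as seed in another, and the material is called silique here.

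In the Arabidopsis seed the embryo grows into the space left as the endosperm around it breaks down, and it must stay separate from that tissue by means of a continuous cuticle. ZOU, a basic helix-loop-helix (bHLH) transcription factor made in the endosperm around the embryo, works as a dimer with ICE1, a broadly expressed bHLH factor, and both are needed for endosperm breakdown. ALE1 is a subtilisin-like protease that depends on ZOU for its expression, and it cuts the precursor TWS1, made by the embryo, into a sulfated peptide. The peptide is recognised by the receptor kinases GSO1 and GSO2 on the embryo surface, where signalling is needed for an unbroken cuticle. KRS, a small secreted cysteine-rich protein that also depends on ZOU, is needed for the sheath that lets the embryo slip free of the endosperm.

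Each value is the authors' mean of the 3 libraries of one genotype, given both as an estimated read count and in FPKM (fragments scaled by transcript length and by library depth, which allows levels to be compared between genes). Such means give no library-to-library spread, and intervals below are exact 95% counting intervals from the summed counts, which cover counting error only. Genes are described as risen or fallen at an adjusted p under 0.05 in the authors' deposited table, and log2 ratios divide the mean FPKM of mee45 by that of Col-0. Mean depth was 20242476 counts per library in Col-0 and 20530953 in mee45. The targeted gene MEE45 (AT4G00260), which encodes a B3-domain protein, had a mean of 0.65 FPKM in Col-0 and 0.033 FPKM in mee45. In Col-0, markers of the silique wall lay between 5.46 and 169 FPKM, those of the seed coat between 26.4 and 466 FPKM, those of the embryo between 0.48 (WOX2) and 57.1 FPKM (LEC1), and those of the endosperm between 0 (ESF1.1) and 12.2 FPKM (PHE1).

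Of the 7 genes, 5 fell in mee45, 0 rose and 2 did not pass the test. The genes that fell were both transcription factors, the protease ALE1, KRS and the receptor gene GSO1, while the peptide precursor TWS1 and the receptor gene GSO2 had ratios near 1. The authors' deposited table also has a column of its own for significance, in which every gene marked yes changed more than 2-fold. Of the 7 genes it marks KRS alone. With a 2-fold minimum added to the adjusted p, 1 of the 7 genes, KRS, was called lower, against 1126 of all 25434 tested genes. Without a fold minimum, 9.15% of all 25434 genes tested were called lower and 6.67% higher. Among the 16317 of them with a mean count of 100 or more, as all 7 genes had, 10.4% were called lower and 8% higher. The median log2 ratio of the 7 genes was -0.82, against 0.0037 over all tested genes with a ratio. In these bulk samples fewer cells of a type and less RNA per cell cannot be told apart.

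**Figure D1:**
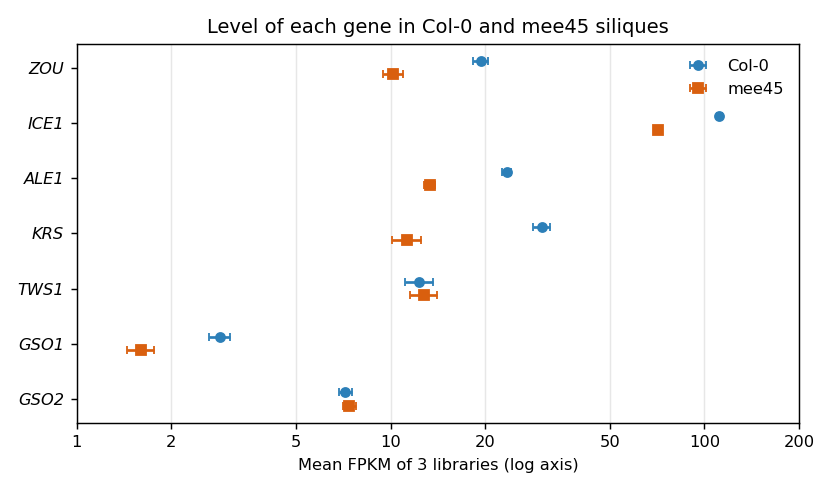
Mean FPKM of 3 libraries (log axis) of each of the 7 genes in Col-0 (circles) and mee45 (squares), with bars for the 95% counting interval, which for ICE1 is narrower than the symbol. ZOU, ICE1, ALE1, KRS and GSO1 lie lower in mee45, and the intervals of TWS1 and GSO2 overlap between genotypes.

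ZOU, the bHLH factor that heads this pathway, lies on the plus strand of chromosome 1 from 18424578 to 18426782 (TAIR10.1, 3 exons). Its mean level was 19.4 FPKM in Col-0 and 10.2 FPKM in mee45, from mean counts of 460 and 245.7. The mee45 level was thus 52.4% of that in Col-0, a log2 ratio of -0.93, and the counting interval at equal total counts ran from 48.1% to 57.6%. ZOU fell, the authors' deposited table giving an adjusted p of 1.16e-05. Of the 20267 genes whose mean count reached 10 in both genotypes, 4.97% had a lower log2 ratio.

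ICE1, the dimer partner of ZOU, which also acts in stomatal development and cold response, lies on the minus strand of chromosome 3 from 9832667 to 9835279 and has 5 annotated transcripts. It was the most abundant of the 7 genes in both genotypes, at 112 FPKM in Col-0 and 71.1 FPKM in mee45. ICE1 fell by 0.65 on the log2 scale, to 63.7% of the Col-0 level (counting interval 62.4% to 65.9%), at an adjusted p of 0.000197 from the authors' deposited table. The ratio of ZOU to ICE1 in FPKM was 0.174 in Col-0 and 0.143 in mee45. The close relative SCRM2 (AT1G12860), a bHLH factor that shares the stomatal role of ICE1, was at 15.5 FPKM in Col-0 and 15.0 FPKM in mee45 and did not pass the test (adjusted p = 0.936 in the authors' deposited table). ICE1 made up 87.8% of the summed FPKM of this pair in Col-0 and 82.6% in mee45. The coding sequences of ICE1 and SCRM2 are 79.0% identical over aligned bases, and the longest stretch shared by their transcripts is 44 bases.

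ALE1, the protease, is a gene of 10 exons on the minus strand of chromosome 1 from 23051002 to 23055672. Its mean level was 23.4 FPKM in Col-0 and 13.3 FPKM in mee45, and mean counts were 1247 and 722.7. ALE1 fell by 0.82 on the log2 scale, to 56.8% of the Col-0 level (counting interval 54.2% to 60.3%), at an adjusted p of 4.32e-06 from the authors' deposited table. The ratio of ALE1 to ZOU was 1.21 in Col-0 and 1.31 in mee45, so that the mean levels of both genes fell in similar proportion. GSO1 fell by a similar share, to 56.0% of its Col-0 level. Whether the fall of ALE1 followed that of ZOU was not tested.

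KRS, the secreted protein of the embryo sheath, is a gene of 1 exon on the minus strand of chromosome 1 from 18763640 to 18764367, and the files describe it as a STIG1-like protein. It showed the largest decrease of the 7 genes. Its mean level was 30.3 FPKM in Col-0 and 11.2 FPKM in mee45, from mean counts of 321.3 and 121.3. The log2 ratio was -1.43, the mee45 level was 37.0% of that in Col-0 (counting interval 32.9% to 42.0%), and the authors' deposited table gave an adjusted p of 2.07e-10. By level among the 7 genes KRS had rank 2 in Col-0 and rank 4 in mee45. Of those 20267 genes, 2.13% had a lower log2 ratio.

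TWS1, the peptide precursor, lies on the minus strand of chromosome 5 from 26848 to 27504 and has a coding length of 246 bases. The files describe this locus as a glycosyl hydrolase family 35 protein. Its mean level was 12.3 FPKM in Col-0 and 12.8 FPKM in mee45, with mean counts of 128.7 and 135.7. TWS1 did not pass the test: its log2 ratio was 0.05, the authors' deposited table gave an adjusted p of 1, with a counting interval of 90.2% to 120% of the Col-0 level. Its ratio to the gene of its protease, TWS1 to ALE1 in FPKM, was 0.525 in Col-0 and 0.959 in mee45. By mean FPKM the mee45 level was 56.8% of that in Col-0 for ALE1 and 104% for TWS1. Whether their ratio changed beyond the spread between libraries was not tested.

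The receptor genes differed in level and in what was seen in mee45. GSO1, a leucine-rich repeat receptor kinase also known for its part in building the Casparian strip of roots, lies on the plus strand of chromosome 4 from 10883921 to 10888270. It was the least abundant of the 7 genes in both genotypes, at 2.85 FPKM in Col-0 and 1.60 FPKM in mee45, with mean counts of 228.7 and 131.7. GSO1 fell by 0.84 on the log2 scale, to 56.0% of the Col-0 level, at an adjusted p of 0.0122 from the authors' deposited table, the largest among the 5 genes that fell. At an adjusted p under 0.01 it was not called.

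GSO2, the paralogous receptor kinase, lies on the minus strand of chromosome 5 from 18032864 to 18037323. Its level was 7.17 FPKM in Col-0 and 7.39 FPKM in mee45, and it did not pass the test (authors' deposited table, adjusted p = 0.960). The counting interval of its mee45 level was 96.9% to 111% of Col-0, against 50.03% to 64.3% for GSO1, and whether the receptor genes differ beyond the spread between libraries was not tested. GSO1 made up 28.5% of the summed FPKM of the pair in Col-0 and 17.8% in mee45. Because GSO2 was the more abundant, the sum of both receptor genes was 10.03 FPKM in Col-0 and 8.99 FPKM in mee45, a log2 ratio of -0.16. The coding sequences of GSO1 and GSO2 are 78.5% identical over aligned bases, and their transcripts share no stretch longer than 29 bases.

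The GSO1 value carries a limit that was looked for in this gene alone. In TAIR10.1 its transcript overlaps that of AT4G20150 on the opposite strand over 337 bases, from 10887934 to 10888270 on chromosome 4, or 7.88% of the GSO1 transcript. AT4G20150 was far more abundant, at 93.4 FPKM in Col-0 and 94.6 FPKM in mee45, and did not pass the test (authors' deposited table, adjusted p = 1). The sources used here do not say whether the counting used strand, and the share of GSO1 counts that came from this overlap was not tested.

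**Figure D2:**
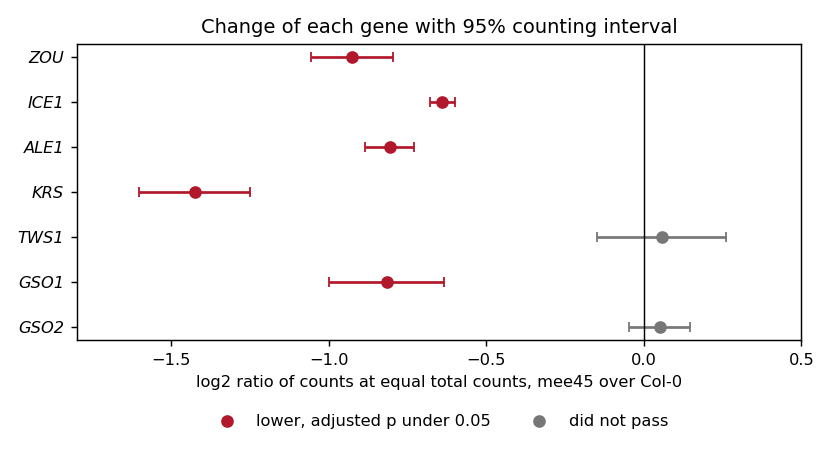
Log2 ratio of counts at equal total counts, mee45 over Col-0, for each gene, with bars for the exact 95% counting interval; red marks genes with an adjusted p under 0.05 in the authors' deposited table. The intervals of the 5 genes that fell lie below 0, and those of TWS1 and GSO2 include it.

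Ordered by level in Col-0, the 7 genes ran ICE1, KRS, ALE1, ZOU, TWS1, GSO2 and GSO1, and no counting intervals of neighbours in this order overlapped. In mee45 the order was ICE1, ALE1, TWS1, KRS, ZOU, GSO2 and GSO1, and the intervals of ALE1 and TWS1, of TWS1 and KRS, and of KRS and ZOU overlapped. The range of the 4 genes between ICE1 and GSO2 thus narrowed from 12.3 to 30.3 FPKM in Col-0 to 10.2 to 13.3 FPKM in mee45. Spread between libraries is unknown, so this order describes the means alone. By distance between pairs of log2 FPKM values, over 2 genotype means and 41 candidates (the other members and the pathway genes with a ratio), the nearest gene to ZOU was ALE1 (0.48 log2 units). The nearest to ALE1 were KRS (0.44) and ZOU (0.48), and the nearest to KRS were ALE1 (0.44) and ZOU (0.66). The second gene to ZOU was the co-receptor gene SERK2 (0.60), which did not pass the test. ICE1 had ABCG32 (0.68) and ATML1 (0.69) nearest, and GSO1 had AT4G34600 (0.38) and AT1G30600 (1.15), none of which passed the test.

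**Figure D3:**
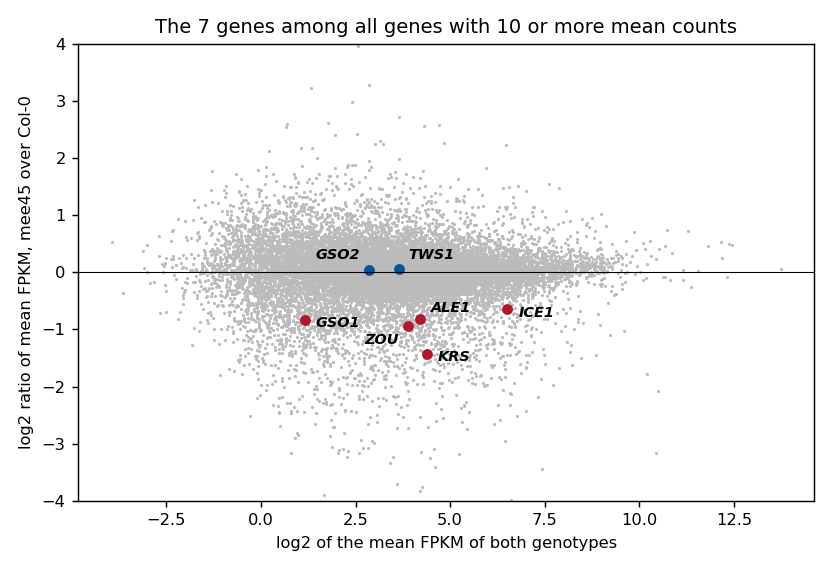
Log2 of mean FPKM in mee45 over that in Col-0, against the log2 mean FPKM of both genotypes for the 20267 genes whose mean count reached 10 in both (grey), with the 7 genes marked in red where they fell and blue where they did not pass; 19 grey genes lie outside the plotted range. ICE1 lies farthest right, and KRS lies lowest of the 7 genes.

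The 250 bases before the annotated start are shown for ZOU, ALE1 and KRS, which fell, and for TWS1, which did not pass the test. They run 5′ to 3′ on the gene's own strand, from TAIR10.1. The windows are chr1:18424328-18424577 on the plus strand for ZOU, and on the minus strand chr1:23055673-23055922 for ALE1, chr1:18764368-18764617 for KRS and chr5:27505-27754 for TWS1. The windows of ICE1 and GSO1, which also fell, and of GSO2, which did not pass, are not printed, and their matches are counted below. Capitals mark matches to CANNTG, the E-box recognised by many bHLH factors.
ZOU: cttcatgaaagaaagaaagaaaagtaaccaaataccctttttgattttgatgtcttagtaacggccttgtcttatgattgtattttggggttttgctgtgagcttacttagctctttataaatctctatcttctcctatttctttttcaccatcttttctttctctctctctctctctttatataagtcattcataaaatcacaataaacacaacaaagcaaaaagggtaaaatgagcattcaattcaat
ALE1: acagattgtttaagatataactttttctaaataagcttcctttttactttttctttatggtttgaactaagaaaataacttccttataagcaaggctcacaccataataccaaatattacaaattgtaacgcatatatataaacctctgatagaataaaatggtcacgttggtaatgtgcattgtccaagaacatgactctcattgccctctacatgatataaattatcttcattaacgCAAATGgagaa
KRS: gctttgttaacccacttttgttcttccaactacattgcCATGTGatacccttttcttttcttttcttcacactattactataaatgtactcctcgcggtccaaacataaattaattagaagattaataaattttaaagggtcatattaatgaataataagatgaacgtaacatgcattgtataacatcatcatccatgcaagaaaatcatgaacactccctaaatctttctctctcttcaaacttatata
TWS1: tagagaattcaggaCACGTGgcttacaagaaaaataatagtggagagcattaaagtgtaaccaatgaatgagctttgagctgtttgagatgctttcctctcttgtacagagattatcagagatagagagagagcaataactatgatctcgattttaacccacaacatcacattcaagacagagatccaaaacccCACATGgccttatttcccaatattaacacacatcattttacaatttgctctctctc

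The window of ALE1 holds 1 match to CANNTG, whose first base lies 11 bases before the annotated start. That of KRS holds 1 match, 212 bases before the start, and that of TWS1 holds 2. The first of those in TWS1 is also a CACGTG, the G-box form of the E-box, 236 bases before the start. GSO1 has 2 matches to CANNTG and GSO2 has 1, whereas the windows of ZOU and ICE1 have 0. Of 27443 windows of the same length before nuclear protein-coding genes, 55.3% hold CANNTG and 6.49% hold CACGTG, so that a match is common. CATGCA, the core of the RY element bound by B3 factors such as FUS3 and LEC2, occurs 2 times each before KRS and ICE1, on either strand, and not before the other 5 genes, against 8.43% of all windows. CACGTG is a case of CANNTG, and CATGCA is not. These matches describe letters in the windows and not binding.

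The wider pathway was read from lists of genes related by function, 44 genes in 7 lists, of which 39 were tested. Among them 9 were called higher, 4 lower and 26 neither, where 6.67% of all tested genes were called higher and 9.15% lower. The 4 lower calls among 39 genes are thus near the share over all genes. Their median log2 ratio was 0.08, against -0.82 for the 7 genes.

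Of 11 signalling partners of the peptide and its receptors, 4 fell and 0 rose, where 9.15% of all tested genes were called lower, and the median log2 ratio was -0.16 over 10 genes with a ratio. With a 1.5-fold minimum 2 of these 4 calls were left, and 1749 of all 25434 tested genes were called lower. TPST (AT1G08030), the sulfotransferase that modifies such peptides, was at 15.7 FPKM in Col-0 and 16.5 FPKM in mee45 and did not pass the test. The co-receptor kinase genes SERK1, SERK2 and BAK1 likewise did not pass, with log2 ratios of 0.02, -0.16 and -0.16. The decreases were in the MAP kinase module and in an oxidase. MPK3 (AT3G45640), a MAP kinase also induced by wounding and defence, went from 103 FPKM in Col-0 to 40.5 FPKM in mee45, a log2 ratio of -1.35 (authors' deposited table, adjusted p = 5.87e-06). Its close relative MPK6 (AT2G43790) was at 35.7 FPKM in both genotypes and did not pass. The MAP kinase kinase genes MKK4 (AT1G51660) and MKK5 (AT3G21220), which act on both, fell by 0.50 and 0.46 on the log2 scale (adjusted p = 0.000554 and 0.0253 in the authors' deposited table). RBOHD (AT5G47910), an NADPH oxidase that makes reactive oxygen at the cell surface, fell by 1.34 (authors' deposited table, adjusted p = 0.00183), whereas RBOHF, at -0.16, did not pass. The protein kinase gene AT1G61590 was listed at 0 in Col-0 and had 1 summed count in mee45.

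Among other listed relatives of the 7 genes, 0 were called lower, where 9.15% of all tested genes were. These lists are too short to set 0 apart from that share. Of 4 bHLH relatives and partners of ICE1, 0 passed the test. FAMA (AT3G24140), which completes guard cell formation, was at 11.9 FPKM in Col-0 and 13.6 FPKM in mee45, SPCH, which starts the stomatal lineage, had mean counts of 8 and 4, and MUTE had 2 summed counts in Col-0 and 0 in mee45. Of 5 subtilase genes related to ALE1, 2 rose, SLP3 (AT2G19170) by 0.49 and AT4G30020 by 0.37 on the log2 scale, where the authors' deposited table gave adjusted p of 0.00153 and 0.0168. Of all tested genes 6.67% were called higher. With a 1.5-fold minimum 0 of the 5 subtilase genes were called higher, against 1024 of all 25434 tested genes. The other 3 subtilase genes had log2 ratios from -0.10 to 0.42, and the list median was 0.37 against -0.82 for ALE1 itself. Of 5 further STIG1-like genes, 3 were at 0 in both genotypes, GRI had 2 summed counts, all in mee45, and AT1G11925 had mean counts of 6.33 and 1.33 without passing the test, so that KRS was the family member with most of the counts among those listed. Of 4 small-protein loci that neither the files nor the reference name, AT2G16385, AT4G34600, AT5G04030 and AT1G28375, only AT4G34600 had more than 3 summed counts, with means of 24.3 and 19.3, and 0 passed the test.

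Among genes of the cuticle itself, several were called higher. Of 10 genes for cutin synthesis and export, 7 rose and 0 fell, against 6.67% of all tested genes called higher, and the list median was 0.44. With a 1.5-fold minimum 3 of the 10 were called higher, against 1024 of all 25434 tested genes. GPAT8 (AT4G00400), an acyltransferase of cutin synthesis, went from 7.18 FPKM in Col-0 to 17.7 FPKM in mee45, a log2 ratio of 1.297 (authors' deposited table, adjusted p = 7.76e-14). Its partner GPAT4 rose by 0.56, the P450 gene LCR by 0.65 and the acyl-CoA synthetase gene LACS2 by 0.64. BDG1, FDH and DCR, which are needed for an intact cuticle, rose by 0.45, 0.32 and 0.44. The P450 gene ATT1 and the transporter genes ABCG11 and ABCG32 did not pass, with log2 ratios of 0.29, 0.30 and 0.23. These genes are expressed in the epidermis of the whole silique, and their summed level was 969 FPKM in Col-0 and 1260 FPKM in mee45, so the part of the embryo in it cannot be told apart.

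Of 5 genes for epidermal identity and embryo surface formation, 0 passed the test. Of all tested genes 9.15% were called lower and 6.67% higher. A list of 5 genes is too short to set 0 apart from these shares. ATML1 and PDF2, the HD-ZIP IV factors that specify the epidermis, had log2 ratios of 0.08 and 0.05, the calpain gene DEK1 0.12, and the receptor kinase genes ALE2 and ACR4 0.14 and 0.34. The median of this list was 0.12.

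**Figure D4:**
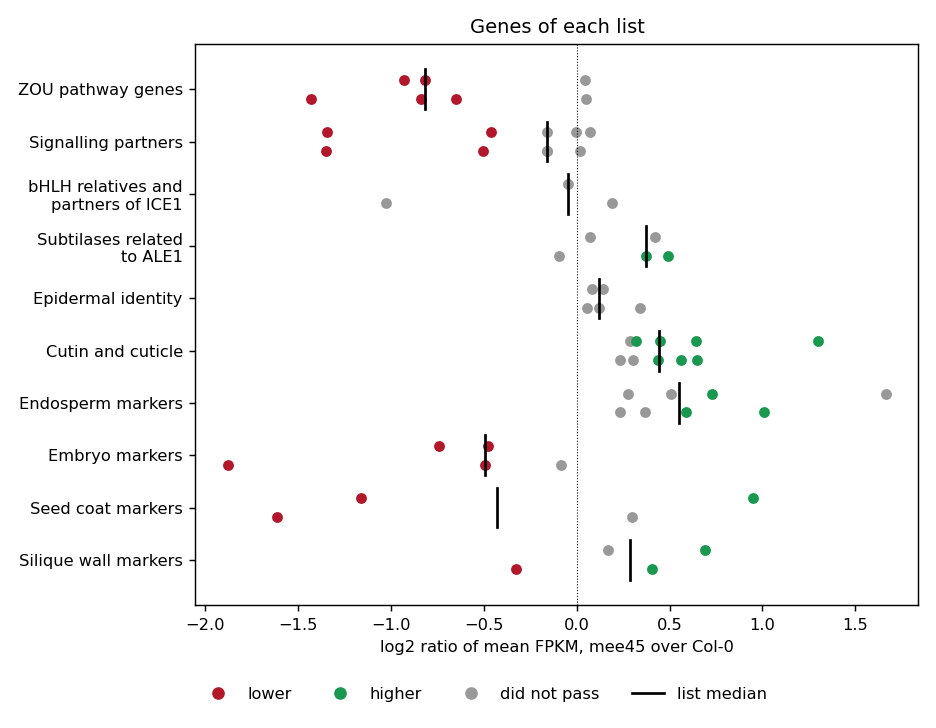
Log2 of mean FPKM in mee45 over that in Col-0, for each gene with a ratio in 10 lists, with points red where lower and green where higher at an adjusted p under 0.05 in the authors' deposited table, grey otherwise, and a bar at the list median. The ZOU pathway and embryo markers have medians of -0.82 and -0.49, and the cutin and endosperm lists of 0.44 and 0.55.

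Markers of the tissues in the silique also changed, in both directions. Of 9 endosperm markers, 8 were tested, 3 rose and 0 fell, where 6.67% of all tested genes were called higher, with a summed level of 38.8 FPKM in Col-0 and 55.4 FPKM in mee45. AGL62, a MADS-box repressor of endosperm cellularization, rose by 1.01, PHE1 by 0.59 and MINI3 by 0.73 on the log2 scale. ESF1.2 and ESF1.3, peptide genes of the endosperm around the embryo, where ZOU is also active, had log2 ratios of 0.28 and 0.37 and did not pass, and ESF1.1 was listed at 0 in both genotypes. The lowest and highest log2 ratios of this list were those of FIS2, at 0.23, and IKU2, at 1.66, neither of which passed. IKU2 had mean counts of only 1.34 in Col-0 and 4.33 in mee45. Of 5 embryo markers, 4 fell and 0 rose, where 9.15% of all tested genes were called lower, with a summed level of 101 FPKM in Col-0 and 60.4 FPKM in mee45. FUS3, a regulator of seed maturation, fell by 1.88, WOX8 by 0.74, LEC1 by 0.49 and WOX9 by 0.48, while WOX2 had mean counts of 8.33 and 8 and did not pass. Of 4 seed coat markers, 2 fell and 1 rose, where 9.15% of all tested genes were called lower and 6.67% higher. Their summed level was 905 FPKM in Col-0 and 775 FPKM in mee45. TT10, a laccase that browns the seed coat, fell by 1.61 on the log2 scale. MUM4, an enzyme of mucilage synthesis, fell by 1.16, whereas TT12, a transporter of flavonoid precursors, rose by 0.95 and BAN, at 0.30, did not pass. Of 4 silique wall markers, 2 rose and 1 fell, where 6.67% of all tested genes were called higher and 9.15% lower. Their summed level was 324 FPKM in Col-0 and 330 FPKM in mee45. IND rose by 0.69 and SHP1 by 0.40, both factors of the valve margin, SHP2 fell by 0.33, and FUL, at 0.17, did not pass. The part of tissue amounts in the lower levels of ZOU, ICE1, ALE1, KRS and GSO1 was not tested.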

How the data were processed

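PolyA RNA of 6 libraries, 3 per genotype, was sequenced as paired ends, per the labels' protocols. Per the submitters' processing notes, the build was TAIR10 and the tools, whose roles are not given, were edgeR, RSEM, Cufflinks, TopHat2 2.0.3.12, Bowtie2 2.2.8 and fastp 0.18.0. The labels mention 3 repeats and also duplicate collection, and n is taken as 3; nothing says that the repeats were separate plants, so p-values reflect only library-to-library spread, possibly technical.

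The deposited estimated counts and FPKM values are the authors' means per genotype, per the file headers and values: 96.1% of the Col-0 and of the mee45 counts, times 3, were whole within 0.03. Calls use the p-values of the authors' deposited table, whose log2 fold changes were found to be ratios of mean FPKM and whose adjusted values were found to be Benjamini-Hochberg ones over 25434 tested genes. The edgeR test per library that would be run on counts of single libraries could not be made from means.

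Computed here, with Python 3.11.15, pandas 2.3.3 and scipy 1.17.1, were log2 ratios, counts of calls, and exact binomial 95% counting intervals of summed counts at equal total counts. Without molecular identifiers, PCR copies are not independent molecules, so the intervals cover counting error only. No ratio is given where both genotypes had 3 or fewer summed counts. On simulated counts for this comparison over 25434 genes, the intervals covered 195 of 200 planted 2-fold changes. Those counts were Poisson draws without spread between libraries, as the intervals assume, so the simulation checks the calculation alone. Sequences and coordinates are from RefSeq TAIR10.1; identities come from global alignment in biopython 1.88.

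The 7 genes and all lists were chosen with earlier results of these data known. Named are the 7 genes, MEE45, every called list gene, those not called that give a list's range, and the 2 nearest list genes by level of each called member; other list genes were named after their values were seen. Alternatives covered thresholds, scalings, pseudocounts and a minimum mean count of 10.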

Additional observations from a re-analysis of the deposited data

How the results depend on the processing

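No paired analysis was possible because the columns hold genotype means with no replicate numbers. For the same reason the planned fits per library, with each library left out, with the replicate number as a block, or with DESeq2 and its size factors, were not run. Of the 7 genes, 5 were called lower, 4 at an adjusted p under 0.01 (GSO1 was lost), and 5 when p was left unadjusted, with a 1.5-fold minimum, or after adjusting p again over genes with 10 or more mean counts. With a 2-fold minimum only KRS was called, 1 of the 7 genes, since the other 4 changed by less. Over all genes, 2326 were lower and 1696 higher; with a 2-fold minimum these were 1126 and 491, and higher genes numbered 1024 with a 1.5-fold minimum, 1078 below an adjusted p of 0.01 and 2889 when p was left unadjusted. Of pathway list genes, 4 were lower and 9 higher; with a 1.5-fold minimum these were 2 and 3, and with a 2-fold minimum 2 and 1. Neither total counts nor the median ratio as the scale moved a log2 ratio of the 7 genes by more than 0.021. With log2(FPKM + 1) their median was -0.64 in place of -0.82, and GSO1 was at -0.57, since a pseudocount shrinks low genes by construction. No result changed sign among those of called genes and list medians.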
